A study of Mus musculus with 89 samples.

Results

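Genes of the CCR4 and CCR8 chemokine axis were examined in the lungs of mice exposed to copper oxide (CuO) nanomaterials, with and without allergic airway inflammation. They were the ligand genes Ccl17, Ccl22 and Ccl1 and the receptor genes Ccr4 and Ccr8, taken as every non-control probe whose RefSeq accession maps to one of these symbols. All 5 genes were found, on 6 of the 56605 non-control probes, among 22907 genes that the array measures. Every mouse, controls included, was a female BALB/c mouse 6 to 8 weeks old at the start that had been sensitized to ovalbumin (OVA) with alum. On 4 consecutive days the airways then received PBS or OVA, alone or with one of 4 materials: core CuO, carboxylated CuO COOH, methylaminated CuO NH3 or PEGylated CuO PEG. Daily doses were 2.5, 10 or 40 μg of material, as the sample descriptions give them, so the mass of material and not of copper was matched. Lung tissue was taken 24 h after the last exposure. By the methods of the study the lungs were lavaged first, and RNA came from part of the left lobe. Cells removed by the lavage are thus not in these values. RNA samples were pooled by 2, and each pool was 1 sample on a two-colour microarray. There were 89 samples in 26 groups: 7 PBS controls, 8 OVA controls, 4 samples each of CuO NH3 10 and CuO PEG 10 with PBS challenge, and 3 in each of the other groups. Groups are named by material and dose, with "+ OVA" where OVA was the challenge.

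CCL17 and CCL22 are chemokines made chiefly by dendritic cells and macrophages, and both bind CCR4, a receptor that T helper 2 (Th2) cells and regulatory T cells carry and that guides them into inflamed skin and lung. CCL1 binds CCR8, a receptor that Th2 and regulatory T cells can also carry. The Th2 cytokines IL-4 and IL-13 act through the transcription factor STAT6, and CCL17 is among the genes that they induce.

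In the RefSeq annotation of the GRCm38.p6 build, Ccl17 (gene ID 20295) lies on the plus strand at chr8:94809380-94812038 and Ccl22 (20299) on the same strand at chr8:94745684-94751388. They are 58.0 kb apart, with 3 other genes between them, among them the chemokine gene Cx3cl1. Ccl1 (20290) is on the minus strand at chr11:82176666-82179812. Ccr4 (12773), at chr9:114490316-114505476 on the minus strand, and Ccr8 (12776), at chr9:120092133-120094906 on the plus strand, share a chromosome. The 250 bases before the transcription start that the RefSeq promoter table uses for each ligand gene are shown because the neighbouring ligands Ccl17 and Ccl22 gave very different readings, and because Ccl17 and Ccl1 were the members that differed between the controls. For Ccl22, Ccl1 and Ccr8 that start is the 5′ end of the gene given above. For Ccl17 it is chr8:94810453, which lies 1073 bases downstream of the gene's 5′ end, so the Ccl17 window is inside the annotated gene and the bases before its outermost start were not analysed here. For Ccr4 it lies 8932 bases downstream. Each window runs 5′ to 3′ on the strand of the gene, with motif matches in capitals.
Ccl17, chr8:94810203-94810452 (+): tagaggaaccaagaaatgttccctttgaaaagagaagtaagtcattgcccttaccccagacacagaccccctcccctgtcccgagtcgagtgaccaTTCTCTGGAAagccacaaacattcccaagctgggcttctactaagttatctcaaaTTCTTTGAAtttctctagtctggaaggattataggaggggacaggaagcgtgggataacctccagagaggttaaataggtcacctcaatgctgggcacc
Ccl22, chr8:94745434-94745683 (+): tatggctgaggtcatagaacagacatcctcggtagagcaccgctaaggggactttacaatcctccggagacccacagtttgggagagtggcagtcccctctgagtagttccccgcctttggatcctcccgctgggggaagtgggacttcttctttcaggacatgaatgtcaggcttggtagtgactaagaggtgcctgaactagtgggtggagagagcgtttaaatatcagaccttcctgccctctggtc
Ccl1, chr11:82179813-82180062 (−): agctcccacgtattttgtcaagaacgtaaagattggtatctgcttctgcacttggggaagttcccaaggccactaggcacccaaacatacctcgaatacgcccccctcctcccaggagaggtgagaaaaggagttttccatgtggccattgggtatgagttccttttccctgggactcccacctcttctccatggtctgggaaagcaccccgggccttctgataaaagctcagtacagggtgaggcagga
Both strands were searched for TTCNNNNGAA, the spacing that STAT6 prefers, for TTCNNNGAA, the spacing of the other STAT factors, for GGGNNTTTCC, an NF-κB type motif, and for TATAAA, the TATA box. No match of one motif overlapped another. The Ccl17 window held TTCTCTGGAA from 154 to 145 bases before the start at chr8:94810453 and TTCTTTGAA from 99 to 91 bases before it. Among 32851 mouse promoter windows of this length, 5.85% held the first motif, 7.02% the second and 0.469% both. GGGNNTTTCC was in 1.41% of these windows and TATAAA in 12.4%. None of the 4 motifs was in the windows of Ccl22, Ccl1, Ccr4 or Ccr8. A match is a description of letters, and binding was not measured.

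Values are log2 median foreground intensity after quantile normalization, and those given for single samples had dye, slide and position on the slide removed. Between 44.6% and 65.7% of the spots of a sample were well above background, and no non-control spot was saturated. The arrays lay on 6 slides: CuO and CuO COOH on 3 of them, CuO NH3 and CuO PEG on the other 3, and controls on all. Surfactant and other lung epithelial genes were bright in every group, which fits the labelled tissue. Ccl17 was well above background in all 89 samples. Ccl22 reached that level in 18 samples, Ccl1 in 53, Ccr8 in 55 and Ccr4 in 40 on one of its probes and in 0 on the other. Probe intensities of different genes were not compared with each other as levels.

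The first comparison asked what OVA challenge did in mice that received no material. Ccl17 and Ccl1 were higher in OVA controls, and Ccl22, Ccr4 and Ccr8 did not pass the test. A gene was called changed where its log2 fold change exceeded 0.58 in size and its adjusted p was under 0.05. By that rule 2 of the 5 genes were called, both higher, against 5.22% of the 22847 genes tested. In tissue of many cell types, fewer cells of a type and less RNA per cell cannot be told apart.

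Ccl17, the CCR4 ligand, ranged from 8.28 to 9.35 (median 8.52) in the 7 PBS controls and from 10.36 to 11.45 (median 11.02) in the 8 OVA controls. The groups did not overlap. The log2 fold change was 2.26 (SE 0.26, 95% interval 1.73 to 2.79), a 4.80-fold difference with a limma adjusted p of 1.17e-06. Ccl1, a CCR8 ligand, ranged from 5.54 to 6.14 (median 5.67) in PBS controls and from 6.67 to 7.58 (median 6.99) in OVA controls, again without overlap. It was well above background in 1 of 7 PBS controls and in 7 of 8 OVA controls. Its log2 fold change in the fit within arrays was 0.80 (SE 0.11, 95% interval 0.57 to 1.03, limma adjusted p 1.97e-05), and in the fit with slide and position in place of the array it was 1.26. Ccl1 was called under both fits. The share of all genes whose samples separate without overlap was not counted, here or in later comparisons. A lack of overlap is thus only a description.

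Ccl22, the other CCR4 ligand, averaged 5.68 ± 0.08 in PBS controls (SD, n = 7), where no sample was well above background, and 6.11 ± 0.18 in OVA controls (SD, n = 8), where 3 were. Its log2 fold change was 0.22 (SE 0.16, 95% interval -0.12 to 0.55, limma adjusted p 0.492). For a group with no sample well above background, a bound was taken from the normalized group means. The dim group was set no lower than the lowest signal well above background. Here the bound was 1.05-fold higher in OVA controls. It has no dye, slide or array removed and no interval, so it is an estimate and not a sure minimum. Ccr4 averaged 5.70 ± 0.07 and 5.93 ± 0.13, with a log2 fold change of 0.19 (SE 0.10, 95% interval -0.02 to 0.40, limma adjusted p 0.274). Its probes gave 0.32 and 0.06, neither past the threshold over all probes. Ccr8 averaged 5.97 ± 0.19 and 6.32 ± 0.15, with a log2 fold change of 0.22 (SE 0.11, 95% interval -0.02 to 0.45, limma adjusted p 0.26). The samples of the control groups did not overlap in Ccl22, where the highest PBS control was at 5.78 and the lowest OVA control at 5.89, and they overlapped in Ccr4 and Ccr8. With the array as a random block the log2 fold changes were 0.36 for Ccl22, 0.25 for Ccr4 and 0.29 for Ccr8, with limma adjusted p of 0.00055, 0.00059 and 0.00072. Slide and position, and the replicate block, also gave adjusted p under 0.05 for the 3 genes, and no alternative took one past the fold threshold.

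**Figure D1:**
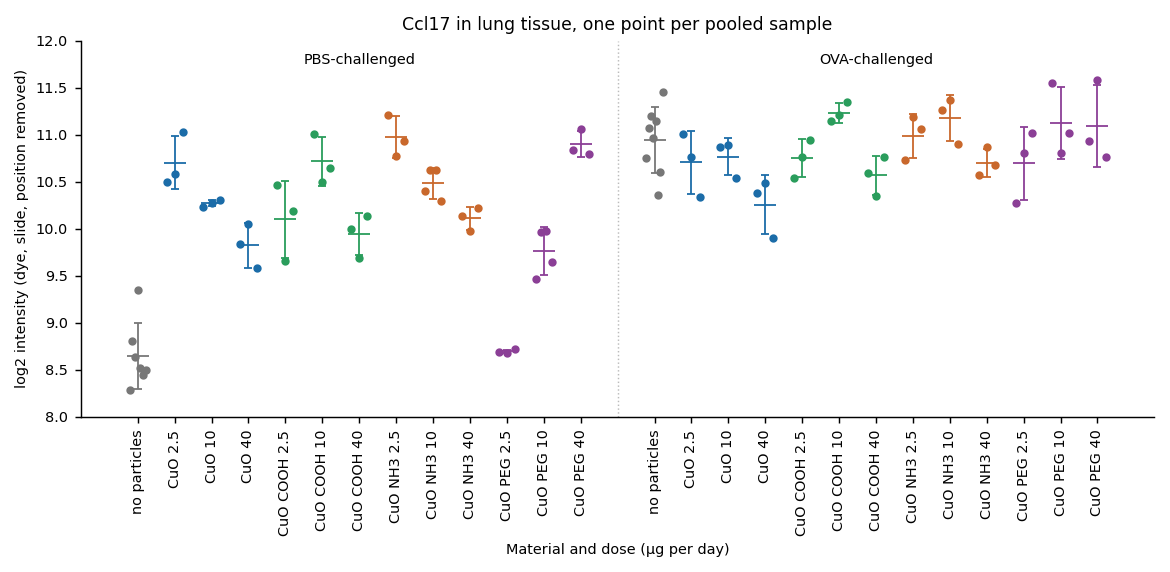
Ccl17 log2 intensity (vertical axis, dye, slide and position removed) in each sample of the 26 groups, with each group's mean and SD. PBS controls and CuO PEG 2.5 sit lowest, at means of 8.65 and 8.70, and every other group mean is 9.76 or higher.

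The second comparison asked whether material alone changed the axis in PBS-challenged mice. Ccl17 was higher than in PBS controls after every material and dose except CuO PEG 2.5. These 11 calls were the only ones among the 60 pairs of member and exposure, where 4.41% of all gene and exposure pairs were called. In the same 11 groups every sample lay above the highest PBS control, and the share of all genes that do so was not counted. All 12 comparisons share the 7 PBS controls.

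After core CuO, Ccl17 read 10.50, 10.59 and 11.03 at 2.5, 10.24, 10.28 and 10.31 at 10, and 9.58, 9.84 and 10.05 at 40. The log2 fold changes were 2.26 (SE 0.38, limma adjusted p 0.00255), 1.79 (SE 0.44, adjusted p 0.0219) and 1.26 (SE 0.43, adjusted p 0.0439). The lowest dose was thus not the weakest, and the samples at 40 lay below all those at 2.5. After CuO COOH the samples were 9.66, 10.19 and 10.46 at 2.5, 10.50, 10.65 and 11.01 at 10, and 9.69, 10.00 and 10.13 at 40. Their log2 fold changes were 2.05 (SE 0.46, limma adjusted p 0.0492), 2.57 (SE 0.46, adjusted p 0.00164) and 1.46 (SE 0.41, adjusted p 0.0199). The call at CuO COOH 2.5 is the least secure, since it was lost in 8 of 10 fits that left out a sample of either arm, at log2 fold changes of 1.92 to 2.19. That at CuO 40 was lost in 5 of 10, at 0.91 to 1.25. With the replicate block the log2 fold changes at CuO COOH 2.5 and CuO COOH 10 were 1.27 and 1.83, and with slide and position in place of the array that at CuO COOH 2.5 was 1.45, all called.

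CuO NH3 gave Ccl17 values of 10.78, 10.93 and 11.21 at 2.5, of 10.29, 10.40, 10.62 and 10.63 at 10, and of 9.98, 10.13 and 10.22 at 40. The log2 fold changes were 2.41 (SE 0.35, limma adjusted p 0.0017), 2.04 (SE 0.30, adjusted p 0.00013) and 1.58 (SE 0.30, adjusted p 0.000327). Samples of the 3 doses did not overlap, with the lowest dose on top. CuO PEG gave the opposite order. At 2.5 its samples were 8.68, 8.69 and 8.72, inside the range of the PBS controls, with a log2 fold change of -0.30 (SE 0.40, 95% interval -1.14 to 0.53). At 10 they were 9.46, 9.65, 9.97 and 9.98 (log2 fold change 1.13, SE 0.21, limma adjusted p 0.00698), and at 40 they were 10.80, 10.84 and 11.06 (2.32, SE 0.35, adjusted p 0.00039).

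The share of all genes called differed widely between these exposures. At 2.5 it was 0.91% for CuO, 0.346% for CuO COOH, 0.937% for CuO NH3 and 0% for CuO PEG. At 10 it was 3.57% for CuO, 3.61% for CuO COOH, 3.37% for CuO NH3 and 0.429% for CuO PEG. At 40 it was 14% for CuO, 10.3% for CuO COOH, 13.2% for CuO NH3 and 2.18% for CuO PEG. Ccl17 was thus called in 3 exposures at 2.5 where under 1% of genes were. Against the OVA controls, the samples of 6 of the 12 PBS-challenged groups overlapped in Ccl17 and those of the other 6 all lay below.

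**Figure D2:**
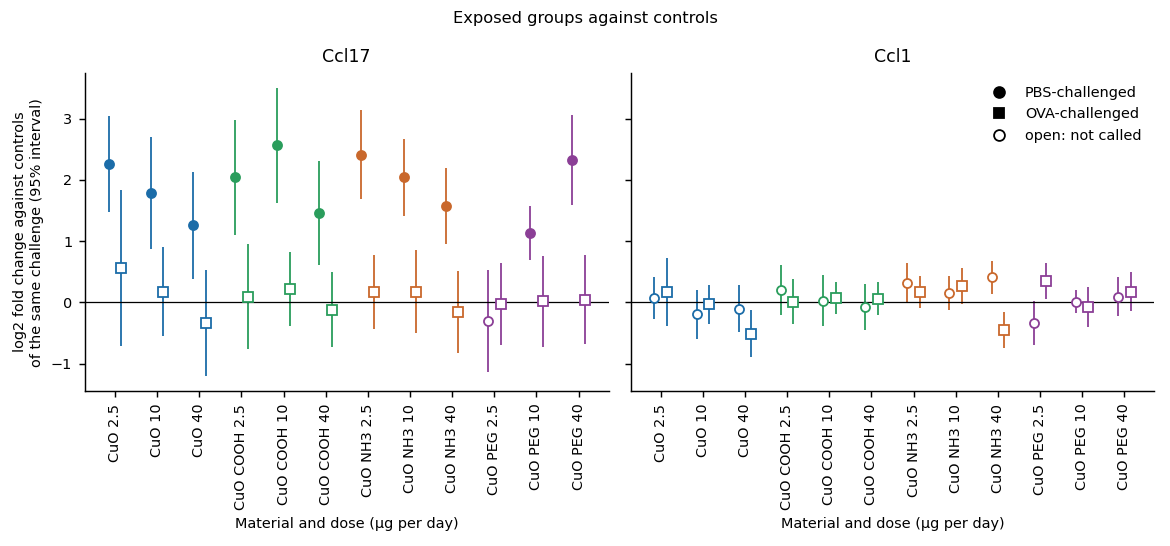
Log2 fold change (with 95% interval) of Ccl17 and Ccl1 in exposed groups against controls of the same challenge, by material and dose in μg per day, with open symbols where the gene was not called. The Ccl17 values of PBS-challenged mice reach 2.57 at CuO COOH 10 and lie at -0.30 at CuO PEG 2.5, and those of the OVA-challenged mice lie between -0.34 and 0.56.

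None of the other members was called after material alone. Of the 45 PBS-challenged samples, Ccl1 was well above background in 11, Ccr8 in 19, Ccr4 in 10 on its brighter probe and Ccl22 in 3. Values near background are compressed, so differences there can be missed. Ccl22 ranged in log2 fold change from -0.26 to 0.23, Ccr4 from -0.14 to 0.25 and Ccr8 from -0.17 to 0.23. Ccl1 ranged from -0.34 to 0.41. Its highest value, at CuO NH3 40, had a limma adjusted p of 0.0224 but missed the fold threshold. All 12 of these groups lay below the OVA controls in Ccl1, also where Ccl17 overlapped them. The lowest fitted value of Ccl1, at CuO PEG 2.5, went against its samples of 6.27, 6.43 and 6.48, which all lay above the highest PBS control at 6.14, and with slide and position in place of the array it was 0.64 and not called. In 57 comparisons of every kind but that between materials, 23 of the Ccl1 values, 16 of Ccl22, 14 of Ccr8, 9 of Ccr4 and 7 of Ccl17 changed sign between these fits, and none of those was called under either.

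Dose was tested within each material as 40 against 2.5. Of the 40 member pairs 1 was called, against 2.17% of all pairs, and it was Ccl17 after CuO PEG. The log2 difference was 2.62 (SE 0.39, 95% interval 1.81 to 3.44, limma adjusted p 0.000234), a 6.16-fold higher value at 40. For the other materials the differences pointed down, at -1.0 for CuO (adjusted p 0.302), -0.58 for CuO COOH (0.832) and -0.83 for CuO NH3 (0.0726). Those of CuO and CuO NH3 were called lower at 40 where the array was a random block, at -0.83 and -0.85. Under OVA challenge no member was called for dose.

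Each modified material was also set against core CuO at the same dose and challenge, with slide and position as terms because CuO NH3 and CuO PEG lay on other slides than core CuO. Of 90 member pairs 3 were called, against 0.5% of all pairs, and all 3 involved CuO PEG. Ccl17 was lower after CuO PEG 2.5 than after CuO 2.5, by a log2 difference of -2.01 (SE 0.32, 95% interval -2.64 to -1.37, limma adjusted p 4.1e-05). At 40 it was higher after CuO PEG, by 1.07 (SE 0.30, 95% interval 0.48 to 1.67, limma adjusted p 0.0106), with all samples of one group above those of the other. The fit with slide and position and the fit with the array as a term both link CuO PEG and CuO NH3 to core CuO through the controls alone. With the array as a term the value at 40 was again 1.07 but the adjusted p was 0.29. At 10 the Ccl17 difference was -0.51 (95% interval -1.09 to 0.07, adjusted p 0.445). For CuO COOH against CuO the Ccl17 differences were -0.60 at 2.5 (95% interval -1.10 to -0.10, adjusted p 0.31), 0.44 at 10 (-0.07 to 0.96) and 0.12 at 40 (-0.38 to 0.62). For CuO NH3 against CuO they were 0.27 (-0.38 to 0.93), 0.21 (-0.37 to 0.79) and 0.29 (-0.32 to 0.90) in the same order of dose. These intervals do not show that the materials acted alike. The copper given differed between materials at a matched dose, and its part in these differences was not tested.

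The next comparison asked whether material changed the axis on top of OVA challenge. No member was called in any of the 12 exposures against OVA controls, so 0 of 60 pairs were called by limma, where 1.2% of all pairs were. At an unadjusted p below 0.05 there were 3 pairs for Ccl1, 1 each for Ccl22, Ccr4 and Ccr8, and 0 for Ccl17. Ccl17 ranged in log2 fold change from -0.34 to 0.56, and in each of the 12 groups its samples overlapped those of the OVA controls. The highest group, CuO COOH 10 + OVA, read 11.14, 11.21 and 11.35. The lowest, CuO 40 + OVA, read 9.91, 10.38 and 10.49. The 95% intervals of these Ccl17 values ran from -1.21 to 1.84.

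Ccl1 had its lowest fitted log2 fold changes under OVA challenge at the highest dose of core CuO and CuO NH3. CuO 40 + OVA read 5.67, 6.04 and 6.07, all below the lowest OVA control at 6.67, and overlapping the PBS controls. The log2 fold change was -0.51 (SE 0.18, 95% interval -0.90 to -0.13, limma adjusted p 0.187). CuO NH3 40 + OVA read 6.39, 6.56 and 7.02, with a log2 fold change of -0.45 (SE 0.14, adjusted p 0.0588), and overlapped the OVA controls. The Ccl1 samples of CuO 2.5 + OVA (6.43 to 6.57) and CuO 10 + OVA (6.47 to 6.64) also all lay below the lowest OVA control, without a call. With the array as a random block, 2 members were called at CuO 40 + OVA, Ccl17 at -0.77 and Ccl1 at -0.85, and the fits with slide and position (-0.69 and -1.09) and with the replicate block (-0.87 and -0.95) called the same genes. Between materials, Ccl1 was higher in CuO PEG 40 + OVA, at 6.83, 7.05 and 7.23, than in CuO 40 + OVA. That difference was 1.11 (SE 0.26, 95% interval 0.58 to 1.63, limma adjusted p 0.033), and with the array as a term it was 0.69 (adjusted p 0.831). The call was also lost in 4 of 6 fits that left out a sample.

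T cell genes also moved in exposures at 40 under OVA challenge. In CuO 40 + OVA 5 of 13 T cell genes fell against OVA controls, among them Cd2 (log2 fold change -1.77), which encodes an adhesion receptor of T cells, the CD3 chain genes Cd3d (-1.41) and Cd3g (-1.41), and the costimulatory receptor gene Cd28 (-1.30). The summed T cell level lay at 11.88 to 12.13 in CuO 40 + OVA and at 13.08 to 13.37 in OVA controls, on the log2 scale. Such a level is a sum of unlogged intensities, so the brightest genes of a list weigh most. After CuO COOH 40 + OVA and CuO NH3 40 + OVA 8 and 10 T cell genes fell, and after CuO PEG 40 + OVA 0 did. Over the 12 exposures under OVA challenge, 24 T cell calls were made, all lower. They were 15.4% of the list's pairs, against 1.2% of all pairs. The share of all genes in each exposure alone is not given here, so the counts per exposure cannot be set against it. Their part in the Ccl1 values was not tested.

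**Figure D3:**
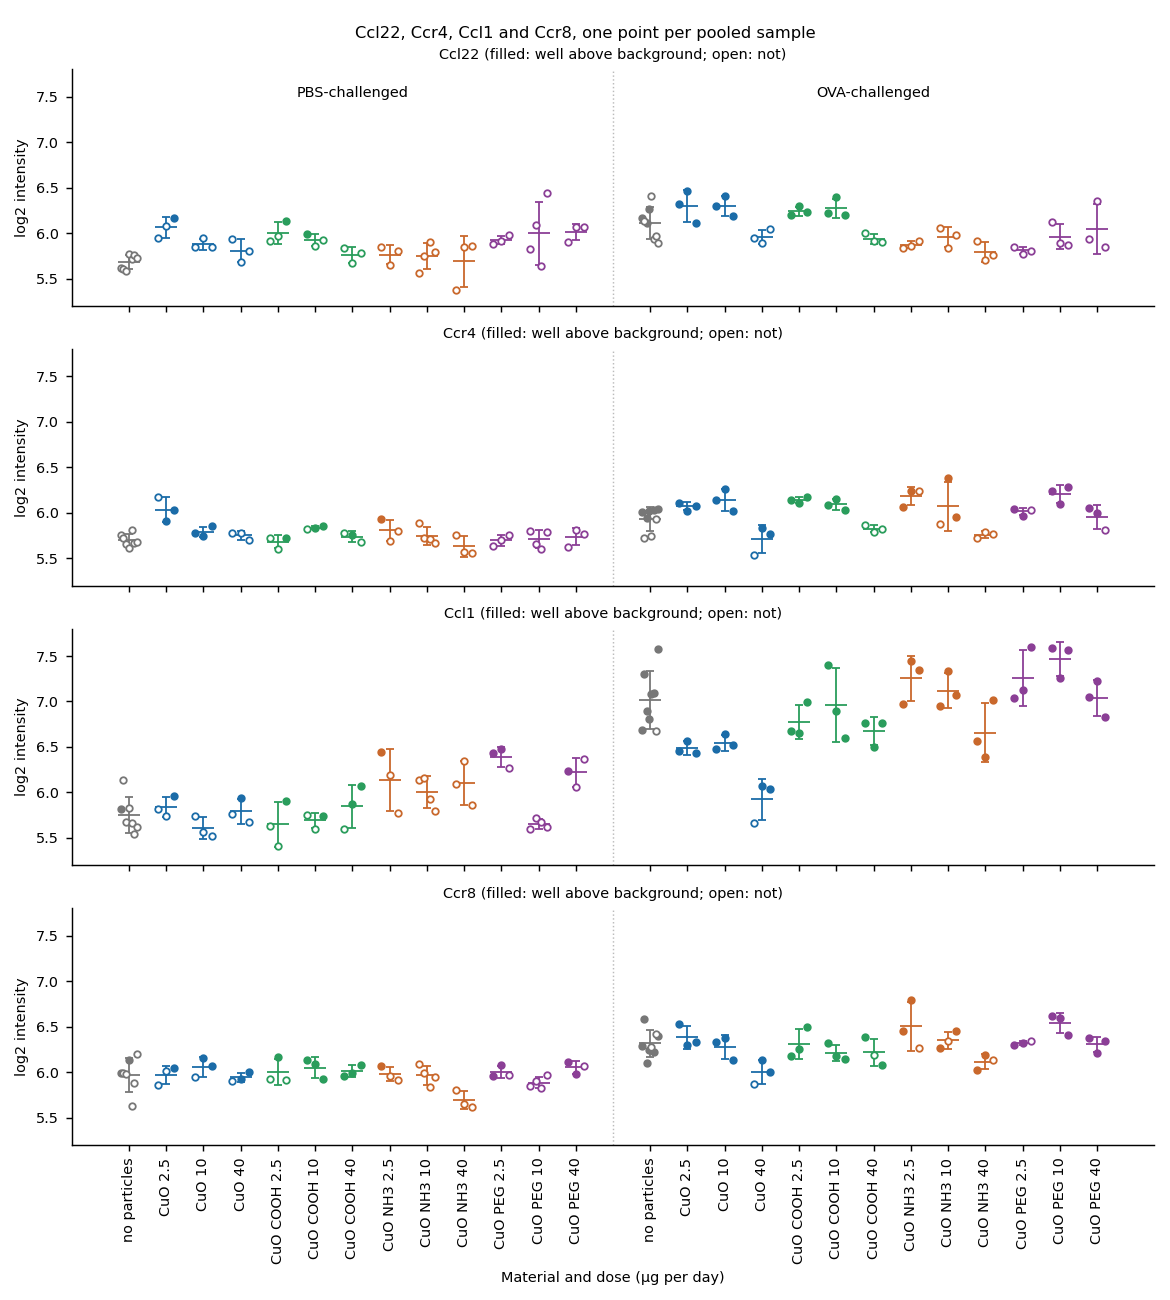
Log2 intensity of Ccl22, Ccr4, Ccl1 and Ccr8 (dye, slide and position removed) in each sample of the 26 groups, with group means and filled points where the probe was well above background. Ccl1 group means span 5.61 to 7.47 and those of the other 3 genes span 5.63 to 6.54.

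The OVA-challenged and PBS-challenged mice of the same material and dose were then compared. Of 60 member pairs 8 were called, all higher with OVA, where 2.04% of all pairs were called. In the fit within arrays Ccl17 was called only at CuO PEG 2.5, where the OVA-challenged samples read 10.27, 10.80 and 11.02. The log2 fold change there was 2.53 (SE 0.44, 95% interval 1.63 to 3.43, limma adjusted p 0.000573). It was 1.14 at CuO PEG 10 (adjusted p 0.19) and between -0.08 and 0.68 in the other 10 exposures. Ccl17 at CuO PEG 10 was called with the random block (1.42), slide and position (1.36) and the replicate block (1.44). The same fits called it at CuO NH3 10, at 0.63, 0.69 and 0.67. At CuO COOH 2.5 it was called with the random block and the replicate block, at 0.75 in each. Without CuO PEG 2.5 replicate 3 the call at CuO PEG 2.5 was lost (2.09, adjusted p 0.154).

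Ccl1 carried 6 of the 8 calls. At CuO PEG 2.5 it read 6.27, 6.43 and 6.48 with PBS and 7.03, 7.13 and 7.60 with OVA, and at CuO NH3 2.5 it read 5.78, 6.19 and 6.45 with PBS and 6.97, 7.35 and 7.44 with OVA. Neither pair of groups overlapped. The fit within arrays gave log2 fold changes of 1.48 (SE 0.19, limma adjusted p 2.37e-05) and 0.65 (SE 0.13, adjusted p 0.00135). At CuO PEG 40 it gave 0.88 (SE 0.18, adjusted p 0.0208). In CuO 10, CuO NH3 10 and CuO PEG 10 with PBS challenge no sample was well above background for Ccl1. There the bound from normalized means was 1.74-fold, 2.01-fold and 2.62-fold higher with OVA. The fit within arrays gave log2 fold changes of 0.96, 0.91 and 0.72 with limma adjusted p values of 0.0497, 0.00094 and 0.0489. At CuO PEG 10 the fitted value is thus below the bound, and it was 1.82 with slide and position in place of the array, where that at CuO PEG 2.5 was 0.86. The call at CuO 10 was lost in 6 of 6 fits that left out a sample and in 3 of 8 alternatives, that at CuO PEG 10 in 5 of 7 and 2 of 8, and that at CuO PEG 40 in 3 of 6 and 1 of 8. CuO PEG 2.5, CuO NH3 2.5 and CuO NH3 10 each lost theirs in 1 such fit, without CuO PEG 2.5 replicate 3 (1.11, adjusted p 0.0713), CuO NH3 2.5 + OVA replicate 2 (0.54, below the fold threshold) and CuO NH3 10 + OVA replicate 3 (0.71, adjusted p 0.122). That at CuO NH3 2.5 was also lost with normexp (0.55). CuO COOH, at log2 fold changes of 0.61, 0.85 and 0.93 for rising dose, and CuO 2.5 (0.90) and CuO 40 (0.39) did not pass the test. At CuO NH3 40 the fit within arrays gave -0.06, although the OVA samples (6.39, 6.56 and 7.02) all lay above the PBS samples (5.86, 6.09 and 6.35). The bound there was 1.44-fold higher with OVA. With slide and position in place of the array the value was 0.56.

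Ccr8 was called at CuO PEG 2.5, with samples of 5.96, 5.97 and 6.08 under PBS and 6.30, 6.32 and 6.34 under OVA. Its log2 fold change was 0.67 (SE 0.19, 95% interval 0.28 to 1.07, limma adjusted p 0.0294). This call was lost in 5 of 8 alternatives, where the value was 0.32 with slide and position, 0.32 with the replicate block, 0.36 with the random block, 0.51 with loess and 0.55 with normexp, and in 3 of 6 fits that left out a sample. At CuO PEG 10, where no PBS-challenged sample was well above background, the bound for Ccr8 was 1.48-fold higher with OVA, but the fit (0.61, adjusted p 0.105) did not call it. Ccr4 had its largest value in the same exposure, 0.45 (95% interval 0.08 to 0.81, adjusted p 0.202). Ccl22 ranged from -0.21 to 0.57 with no call.

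**Figure D4:**
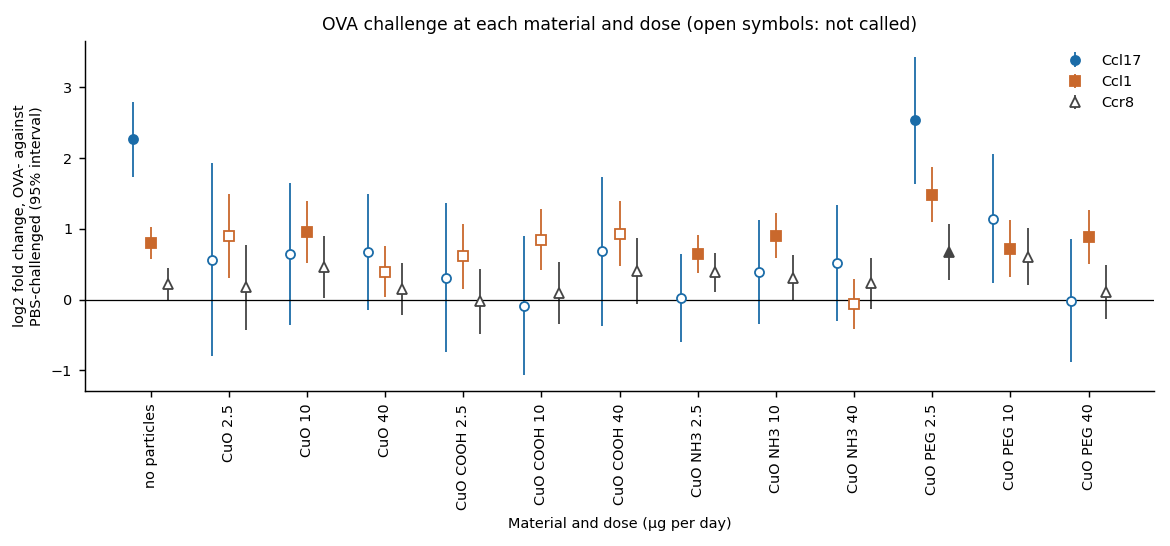
Log2 fold change (with 95% interval) of OVA-challenged against PBS-challenged mice at the same exposure for Ccl17, Ccl1 and Ccr8, controls without particles included, with open symbols where the gene was not called. For Ccl17 the difference is 2.26 in controls and 2.53 at CuO PEG 2.5 and is 1.14 or lower elsewhere, and for Ccl1 this fit within arrays gives 1.48 at CuO PEG 2.5 and 0.72 at CuO PEG 10, an order that turns with slide and position in place of the array (0.86 and 1.82).

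Whether the effect of a material differed between the challenges was tested as an interaction, the log2 fold change under OVA minus that under PBS. Of 60 member pairs 3 were called, all lower, where 0.347% of all pairs were called. For Ccl17 the difference was -2.24 at CuO NH3 2.5 (SE 0.38, 95% interval -3.03 to -1.45, limma adjusted p 0.0211) and -1.74 at CuO NH3 40 (SE 0.42, 95% interval -2.61 to -0.87, adjusted p 0.0298). In 11 of the 12 exposures the unadjusted p was below 0.05, and the largest value was -2.35 at CuO COOH 10 (adjusted p 0.0673). All 12 comparisons share the same PBS and OVA controls, so they are not independent of each other. The exception was CuO PEG 2.5, at 0.27 (95% interval -0.86 to 1.40). For Ccl1 the difference at CuO NH3 40 was -0.86 (SE 0.18, adjusted p 0.0112). That Ccl1 call was lost with the random block (-0.60, adjusted p 0.116), with slide and position (-0.70, 0.0601) and with the replicate block (-0.47, 0.222). Ccl22, Ccr4 and Ccr8 gave no call. Against the controls of the same slides alone, these 3 values were -1.87 (adjusted p 0.435), -1.51 (0.272) and -0.84 (0.11).

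Across the 26 groups, the order of the Ccl17 means ran from 8.65 in PBS controls and 8.70 in CuO PEG 2.5, over a gap of 1.07 to CuO PEG 10 at 9.76, up to 11.24 in CuO COOH 10 + OVA. Of the 25 gaps between neighbours in this order, 2 were larger than the SD of either neighbour. For Ccl1, Ccl22, Ccr4 and Ccr8 there were 1, 1, 0 and 2 such gaps, so most neighbours did not differ beyond their spread. Ccl1 group means ran from 5.61 to 6.39 with PBS challenge and from 5.93 to 7.47 with OVA, Ccr8 from 5.69 to 6.06 and from 6.00 to 6.54, Ccr4 from 5.63 to 6.03 and from 5.71 to 6.21, and Ccl22 from 5.68 to 6.06 and from 5.79 to 6.30.

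As a description over the 26 group means, which share dyes, slides and controls, Ccl17 and Ccl1 correlated at a Pearson r of 0.58. Within the 13 PBS-challenged groups it was -0.03, and within the 13 OVA-challenged groups it was 0.78. Over all 26 groups the receptors Ccr4 and Ccr8 correlated at 0.86 and Ccl1 with its receptor Ccr8 at 0.84. Ccl17 and its neighbour Ccl22 correlated at 0.42 there. In the same order, these values were 0.37, -0.14 and 0.27 within the PBS-challenged groups. They were 0.83, 0.78 and 0.15 within the OVA-challenged groups. The high value of Ccl1 with Ccr8 was thus not seen among PBS-challenged groups. Among 15433 genes well above background in at least 50% of samples, the genes most like Ccl17 were the lysosomal protease gene Ctsc (0.91), the carboxylate transporter gene Slc13a3 (0.89), the costimulatory receptor gene Tnfrsf9 (0.89), Dcstamp (0.86), whose product acts in the fusion of macrophage lineage cells, and the neutrophil chemokine gene Cxcl5 (0.86). Those most like Ccl1 were the GM-CSF receptor gene Csf2ra (0.95), Slamf8 (0.95), Plekho2 (0.94), Moxd1 (0.93) and the dendritic cell transcription factor gene Batf3 (0.93). Those most like Ccr8 were the kynurenine pathway gene Kmo (0.95), the ubiquitin-like gene Ubd (0.95), Gm9054 (0.94), the phosphatase gene Ptpro (0.94) and the DNA sensor gene Aim2 (0.94).

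Of 22 other genes of the Th2 pathway, 6 rose and 0 fell between PBS and OVA controls, where 5.22% of all genes were called. The median log2 fold change of the 22 was 0.16, against -0.02 over all genes. Those that rose included the chemokine genes Ccl8 (5.91), Ccl24 (4.25) and Ccl11 (2.07), of which the latter pair encode eotaxins. The others were the alarmin gene Il33 (1.41), the cytokine gene Il4 (1.05) and the transcription factor gene Irf4 (0.60). Il5, Il9, Il13 and Il25 reached levels well above background in only 16, 2, 1 and 11 samples, so little can be read from them. After material alone, 12 calls were higher and 9 lower over the 12 exposures, 7.95% of the pairs, against 4.41% of all pairs. At 2.5 of any material 0 of these pathway genes were called, where 0% to 0.937% of all genes were. Ccl17 was called there after CuO, CuO COOH and CuO NH3. Il33 rose in 7 exposures, all at 10 or 40, by 0.88 to 1.89. Gata3, the transcription factor of Th2 cells, fell at CuO 10 (-1.24), CuO 40 (-2.05), CuO COOH 40 (-1.09) and CuO NH3 40 (-1.14), and the epithelial cytokine gene Tslp fell at 40 of the same 3 materials by 1.03, 0.83 and 0.64. Under OVA challenge 4 calls were made, all lower, which is 1.52% of the list's pairs against 1.2% of all pairs, and 3 of them were Gata3 at CuO 40 (-1.18), CuO COOH 40 (-1.12) and CuO NH3 40 (-0.78).

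**Figure D5:**
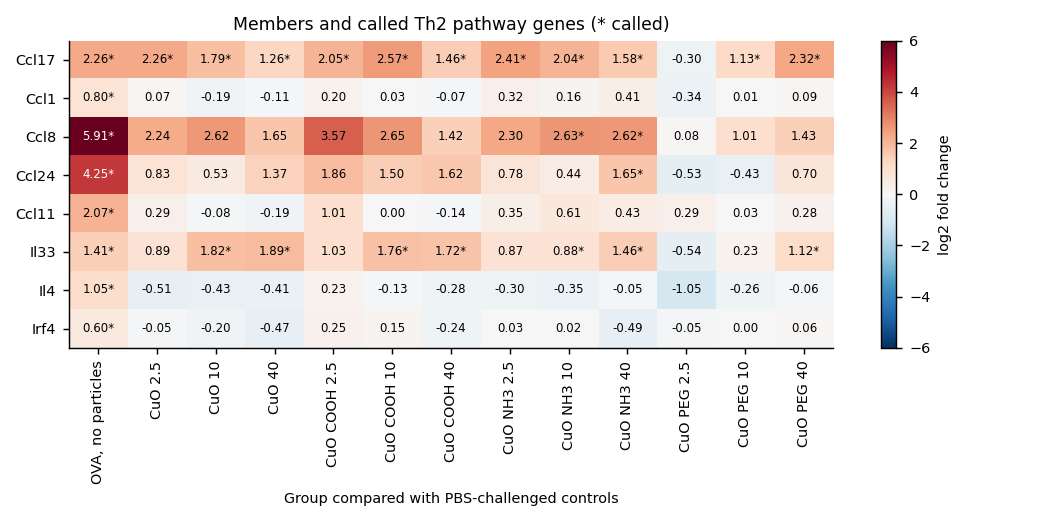
Log2 fold changes of Ccl17, Ccl1 and the 6 Th2 pathway genes called between controls, in OVA controls and in each PBS-challenged exposure against PBS controls, with an asterisk on each call. Ccl17 is marked in 11 of the 12 exposures and Il33 in 7, and Ccl1 only in the OVA controls.

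Genes that mark the cells able to make or answer these chemokines were read beside the members. Between the controls 5.22% of all genes were called. Between PBS and OVA controls, 9 of 14 dendritic cell genes rose, led by Batf3 (2.00), the integrin gene Itgax (1.20), Cd83 (1.17) and the MHC class II gene H2-Aa (1.03). Of 10 macrophage genes 7 rose, led by Arg1 (4.26), Retnla (4.24), Chil3 (3.94) and the mannose receptor gene Mrc1 (1.54). Of 7 regulatory T cell genes 5 rose, among them Icos (1.32), Tnfrsf4 (1.24), Tnfrsf18 (1.08) and Il2ra (1.04), and of 13 T cell genes 4 rose, Cd3g (0.82), Cd5 (0.71), Lck (0.62) and Zap70 (0.58). The summed dendritic cell level was 14.17 to 14.45 in PBS controls and 14.96 to 15.41 in OVA controls, and the summed macrophage level was 14.52 to 15.36 and 17.53 to 19.26. The macrophage sum rests mostly on Retnla (means 13.78 in PBS and 17.39 in OVA controls) and Chil3 (13.34 and 16.92). The dendritic cell sum rests mostly on H2-Ab1 (13.77 and 14.72). These sums are thus not measures of cell number. Of 6 eosinophil genes 3 rose, Prg2 (1.34), Alox15 (1.34) and Epx (0.74), of 9 measured neutrophil genes only Retnlg (1.04) did, and of the lung epithelial genes Sftpb fell (-0.64). Ccl17 and Ccl1 rose with these lists, and the part of cell number in either was not tested.

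The same lists were counted after material alone. At 2.5 of CuO, CuO COOH and CuO NH3, where Ccl17 was called higher, 0 dendritic cell and 0 T cell genes were called. There 0.346% to 0.937% of all genes were. The summed dendritic cell level was 14.60 to 15.02 in CuO 2.5 and 14.51 to 14.67 in CuO NH3 2.5, above the PBS controls in each sample. At CuO 40 it was 13.43 to 13.87, below the PBS controls, with 4 of 14 genes lower, and 9 of 13 T cell genes were lower. In CuO COOH 40 and CuO NH3 40, 4 and 6 dendritic cell genes and 8 and 9 T cell genes were lower. Of all genes, 14% were called at CuO 40, 10.3% at CuO COOH 40 and 13.2% at CuO NH3 40. At CuO PEG 40, 1 dendritic cell gene was higher and 0 T cell genes were called, where 2.18% of all genes were. Ccl17 was higher than in PBS controls in all 4 of these groups. Of the macrophage list, 18 calls were higher and 7 lower over the 12 exposures, 20.8% of its pairs, against 4.41% of all pairs. No macrophage gene rose at 2.5 of any material, but the summed macrophage level lay above every PBS control (14.52 to 15.36) at CuO COOH 2.5 (15.73 to 16.10) and CuO NH3 2.5 (16.07 to 16.35), and it overlapped them at CuO 2.5 (15.07 to 16.81) and CuO PEG 2.5 (15.10 to 15.45). At CuO 40 it was 16.48 to 17.58, where Arg1 (4.25), Retnla (3.36) and Cd68 (1.18) rose and Siglecf, carried by alveolar macrophages and eosinophils, fell (-1.44). These sums again rest mostly on the brightest genes of each list, and the part of macrophages in the Ccl17 values was not tested.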

How the data were processed

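Lung RNA of 89 pools was hybridised to 46 two-colour Agilent arrays of 62976 spots, 43 of them with a sample in each channel. The authors deposited Feature Extraction output (version 12.0.2.2 per the file headers), from which the median foreground intensity of each channel was used, without background subtraction, after the methods of the study. The deposited series table holds log2 values and served as an alternative. Control and outlier spots were left out, log2 values were quantile normalized, and probes were named by RefSeq accession (32989 with 1 gene, 23616 without) and averaged per gene.

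Groups were compared with limma 3.58.1 in R 4.3.3 on 22847 genes with dye and array as terms, which left 17 residual degrees of freedom, or, for modified against core material, dye, slide and position (50). P-values were Benjamini-Hochberg adjusted over all genes. They measure the spread between pools, and the number of arrays limits precision. Bounds for dim probes used normalized means without batch terms and the lowest signal well above background on each array. Named genes were the members, called pathway genes (at most 8, or 4 in exposed groups), up to 4 genes a cell type list and the 5 most alike in pattern. Neutrophil, eosinophil and epithelial lists were also read. The members and lists were chosen with earlier results of these data known. Scripts were tested on simulated data. Alternatives were normexp with offset 50, loess (86 samples), leaving out dim probes, the deposited table, the array as a random block, slide and position, a replicate block, the brightest probe, same-slide controls and leaving out each sample.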

Additional observations from a re-analysis of the deposited data

Results flagged for a closer look

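The effect of CuO NH3 differed between the challenges in 3 member results, by a test of the difference itself. For Ccl17 the log2 fold change under OVA minus that under PBS was -2.24 at CuO NH3 2.5 and -1.74 at CuO NH3 40, and for Ccl1 it was -0.86 at CuO NH3 40 (limma adjusted p 0.0211, 0.0298 and 0.0112). For Ccl17 every PBS-challenged sample of both doses lay above the PBS controls and the OVA-challenged samples overlapped the OVA controls. The Ccl17 calls at 2.5 and 40 were lost in 8 and 11 of 21 fits that left out a sample, and both with same-slide controls. The Ccl17 difference was of like size at CuO COOH 10 (-2.35) and CuO PEG 40 (-2.28), where it was not called. For Ccl1 at CuO NH3 40 the samples of each challenge overlapped their controls, and this call was lost with the random block, with slide and position and with the replicate block. No sample stood apart in the 20 sets of 4 to 10 samples of a member and group that were tested for one.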

How the results depend on the processing

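The 2 calls between controls held under every alternative and every omission. Over the alternatives Ccl17 lay at 2.21 to 2.32, and Ccl1 ranged more widely, from 0.66 to 1.26. The 11 Ccl17 calls after material alone became 10 with normexp and 9 with same-slide controls, where CuO NH3 2.5 (2.14, adjusted p 0.0687) and CuO PEG 40 (1.99, adjusted p 0.108) were lost. Leaving out 1 sample gave 7 to 11, with 7 without CuO COOH 10 + OVA replicate 2, CuO 10 replicate 2, CuO 40 replicate 2 or CuO 40 + OVA replicate 2. An omitted sample also leaves the other sample of its array without a partner. Against OVA controls, 2 calls were made with the random block, 2 with slide and position and 2 with the replicate block, and 0 to 1 on leaving out samples (1 without CuO NH3 40 + OVA replicate 2 or CuO NH3 10 replicate 3). The 8 calls for challenge became 4 with normexp, 15 with the random block, 14 with slide and position and 16 with the replicate block, and 4 to 8 on leaving out samples (4 without OVA replicate 8 or CuO PEG 2.5 replicate 3). The 3 interactions became 11 with the random block, 10 with slide and position, 11 with the replicate block and 5 with the brightest probe, without that of Ccl1 at CuO NH3 40 under the first 3, and 0 to 7 on leaving out samples (0 without CuO NH3 40 replicate 1 or PBS replicate 5, and 7 without PBS replicate 4 or CuO PEG 10 replicate 1). The 1 dose call became 2 with normexp, 4 with the random block, 3 with slide and position and 4 with the replicate block, and 0 to 2 on leaving out samples (0 without OVA replicate 8 or CuO PEG 2.5 replicate 3). The 3 material calls became 6 with the random block, 1 with dye and array and 6 with the replicate block, and 1 to 3 on leaving out samples (1 without CuO PEG 40 replicate 2). Of the Th2 list, the 6 calls between controls became 4 to 8 and the 21 after material alone became 16 to 25 on leaving out samples. The 4 under OVA became 18 with the random block, 15 with slide and position, 27 with the replicate block and 7 with the brightest probe, and 2 to 6 on leaving out samples. The 1 member value that changed sign where either fit called it was Ccl1 in CuO NH3 40 + OVA against CuO NH3 40, from -0.06 to 0.72 with the replicate block. Over all member values, called or not, 79 of 375 changed sign with the replicate block and 2 of 375 with the deposited table. Apart from the number of genes tested or samples used, the cause was not tested.

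Replicate numbers did not pair the samples: in 0 of 25 comparisons did every same-numbered pair correlate above 0.1, and r ran from -0.32 to 0.67. Ccl22 and Ccr4 lay near background. So did Ccl1 and Ccr8 under PBS challenge, where they were well above it in 11 and 19 of 45 samples. Values that carry no background subtraction are compressed at that level.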
